A study of Mus musculus with 3 samples.

Results

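The genes described here are 10 nuclear transport genes of mouse ES cells, taken by name from the 24421 genes in the deposited counts. They are the importin α genes Kpna1, Kpna2, Kpna3, Kpna4 and Kpna6, the importin β family genes Kpnb1, Tnpo1 and Ipo5, the exportin gene Xpo1, and Ran, and all 10 were found. Expression was measured by RNA-Seq of total RNA depleted of ribosomal RNA, in undifferentiated EL 16.7 cells, a female ES cell line of the background F2:129S1/CastEiJx 129S1. The control library came from cells that carried a control (scramble) shRNA and are labelled wild type, and the KD-1 and KD-2 libraries came from cells that carried NUP153 shRNA-1 or NUP153 shRNA-2. All cells had received lentivirus, were grown with LIF on γ-irradiated fibroblasts of DR4 mice, and were selected with 2 μg/ml puromycin for 2 days before collection. The RNA can include that of the feeder fibroblasts. There was 1 library for each condition, which leaves replicate error unknown, and the difference of any gene between libraries has no replicate check.

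Proteins with a nuclear localization signal are carried through the nuclear pore by importin α, the adaptor that reads the signal, bound to importin β1, the product of Kpnb1, which contacts the pore. Other receptors of the importin β family bind their cargo directly, and exportins carry cargo the opposite way. The GTPase Ran gives these trips their direction, because Ran with GTP, which is made in the nucleus, releases the cargo of importins and is needed by exportins to hold theirs. NUP153 is a nucleoporin of the nuclear basket, where import complexes arrive, and it binds importins and Ran. Mouse ES cells are known for a high level of Kpna2 among the importin α genes, and a shift from Kpna2 to Kpna1 accompanies neural differentiation.

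Reads on genes numbered between 69839336 in KD-2 and 85258834 in KD-1, with 72344726 in control. Levels were scaled by upper-quartile normalization and are given as RPM, which are reads relative to the scaled size of the library. Where genes are compared to each other, levels are given as RPKM, which also divides by the exon length in kilobases. Log2 fold changes were computed with a pseudocount of 0.5 reads for 16670 genes whose mean over the 3 libraries reached 10 reads, and these include all 10 transport genes. A gene is called when its fold change is above 1.5, which is a threshold of size and not a test. The 95% intervals given with log2 fold changes and shares are exact Clopper-Pearson intervals, which cover the counting of reads only. Nup153, the targeted gene, had 27870 reads in the control library, 16451 for KD-1 and 11126 for KD-2. On the log2 scale the fold change was -0.97 for KD-1 and -1.37 for KD-2, in the direction that the sample labels give.

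In KD-2 the transport genes were mostly below control, led by Xpo1, Ipo5 and Kpna2. In KD-1 their log2 fold changes ran from -0.115 for Xpo1 to 0.367 for Kpna4. Xpo1, the exportin also named CRM1, was at 656.3 RPM in control and 411.2 in KD-2, and Ipo5, an importin of ribosomal proteins and histones, was at 946.3 and 604.4. Kpna4 was the exception, above control in both knockdown libraries. Among genes whose mean reached 1000 reads, 12.1% lay at least as far from 0 as Kpna4 in KD-1. In KD-2 these shares were 10.2% for Xpo1, 11.6% for Ipo5 and 15.3% for Kpna2. Of the 10 genes, 3 were called in KD-2, all lower, against 26.9% of all genes tested that were called in either direction and 7.53% that were called lower. In KD-1, 0 of the 10 genes were called, against 14.4% of all genes tested and 4.15% of those whose mean reached 1000 reads, as that of each of the 10 genes did. The library totals in place of upper-quartile normalization left 0 of the 10 genes called in KD-2. In the same library the summed level of 10 feeder fibroblast markers, mostly Col3a1 and Fn1, was 1.74-fold that of control. The part of feeder cells in the values was not tested. In bulk RNA, fewer cells of a type and less RNA for each cell cannot be told apart.

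Of the 10 genes, 7 had a match among the RefSeq promoter sequences (GRCm38.p6). The 250 bases before the RefSeq start of transcription are shown for the 3 genes called in KD-2 and for Kpna4, whose value had the opposite sign, to set the promoters of genes with like values beside one that differed. They are written from 5′ to 3′ on the strand of the gene, and capitals mark CCAAT and its reverse complement ATTGG. The Xpo1 window is chr11:23255791-23256040 on the plus strand, that of Ipo5 is chr14:120910944-120911193 on the plus strand, that of Kpna2 is chr11:106999526-106999775 on the minus strand, and that of Kpna4 is chr3:69127093-69127342 on the minus strand.
Xpo1: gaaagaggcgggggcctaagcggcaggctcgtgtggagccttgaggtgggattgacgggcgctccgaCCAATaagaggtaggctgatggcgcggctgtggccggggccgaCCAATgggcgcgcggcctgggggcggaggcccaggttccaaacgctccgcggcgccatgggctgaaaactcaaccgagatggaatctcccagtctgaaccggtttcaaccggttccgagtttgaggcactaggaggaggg
Ipo5: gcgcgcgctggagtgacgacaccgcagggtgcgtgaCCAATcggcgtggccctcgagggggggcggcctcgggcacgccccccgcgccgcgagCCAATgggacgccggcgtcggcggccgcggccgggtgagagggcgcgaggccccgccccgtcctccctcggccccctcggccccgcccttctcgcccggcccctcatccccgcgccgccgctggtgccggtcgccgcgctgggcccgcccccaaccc
Kpna2: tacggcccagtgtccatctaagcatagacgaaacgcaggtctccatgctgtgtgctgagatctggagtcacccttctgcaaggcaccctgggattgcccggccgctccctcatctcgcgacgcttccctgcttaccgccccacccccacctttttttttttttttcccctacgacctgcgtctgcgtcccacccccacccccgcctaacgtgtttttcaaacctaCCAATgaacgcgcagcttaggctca
Kpna4: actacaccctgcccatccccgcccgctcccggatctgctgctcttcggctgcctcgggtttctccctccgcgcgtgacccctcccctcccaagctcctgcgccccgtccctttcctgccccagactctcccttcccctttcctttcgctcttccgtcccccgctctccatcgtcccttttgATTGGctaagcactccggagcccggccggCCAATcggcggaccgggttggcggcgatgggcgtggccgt

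The letters CCAAT, which name the box bound by NF-Y, were searched on both strands in the same 250 bases of every promoter. They were in the windows of 5 of the 7 matched genes, and in 33.9% of 32851 promoters. More than 1 copy was present in 4 of the 7 genes and in 10.1% of all promoters. Xpo1 held its 2 copies 183 and 140 bases before the start, and Ipo5 held 2 copies at 214 and 157 bases. The Kpna2 window held 1 copy at 25 bases, Kpna4 held 2 at 69 and 40 bases, and Kpnb1 held 3. The windows of Tnpo1 and Ran held 0 copies. The copies were thus in windows of genes called lower in KD-2 and also in that of Kpna4. GGGCGG on either strand, the GC box, was in the windows of all 7 matched genes and in 32.7% of all promoters. TATAAA on either strand was in 0 of the 7 and in 12.4% of all promoters. G and C made up 57.6% of the window for Kpna2, 65.2% for Xpo1, 68.4% for Kpna4 and 82.4% for Ipo5. No value over all promoters is given for G and C, and the 32851 promoters were not matched for it or for expression.

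Importin α genes come first, since their products choose the cargo. Kpna2 (chr11:106988629-106999541, minus strand, GRCm38), which encodes the importin α that prevails in ES cells, had 51121 reads in the control library, 56367 for KD-1 and 35094 for KD-2. This is 718.8 RPM in the control library, 682.9 for KD-1 and 478.3 for KD-2, so that KD-2 stood apart from the other libraries. On the log2 scale the fold change was -0.07 for KD-1 (interval -0.09 to -0.06) and -0.59 for KD-2 (interval -0.61 to -0.57). The value in KD-2, a 1.503-fold lower level, sits on the threshold, and its interval holds values on both sides of it. In KD-2, 26.7% of all genes tested lay at least as far from 0, as did 15.3% of those whose mean reached 1000 reads. Kpna3 (chr14:61365211-61439874, minus strand) was at 219.1 RPM in the control library, 219.9 for KD-1 and 166.3 for KD-2. On the log2 scale the fold change was -0.40 in KD-2 and 0.01 in KD-1, and the sign of the value in KD-1 changed with the scaling. Control and KD-1 differed for Kpna3 by less than the counting error, and KD-2 was the low library as for Kpna2.

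Kpna1 (chr16:35978750-36037131, plus strand) was at 137.1 RPM in the control library, 161.9 for KD-1 and 128.1 for KD-2. For Kpna1 the log2 fold change was 0.24 for KD-1 (interval 0.20 to 0.28) and -0.10 for KD-2 (interval -0.14 to -0.06). Kpna6 (chr4:129643980-129672767, minus strand) was at 75.4 RPM in the control library, 86.8 for KD-1 and 74.0 for KD-2. Kpna1 and Kpna6, which are close relatives, were both highest in KD-1, and the value of Kpna6 in KD-2 changed sign with the scaling, from -0.07 to 0.07. Kpna4 (chr3:69067149-69127113, minus strand) was at 76.9 RPM in the control library, 99.2 for KD-1 and 94.7 for KD-2. Here control was the lowest library. For Kpna4 the log2 fold change was 0.37 for KD-1 (interval 0.32 to 0.42) and 0.30 for KD-2 (interval 0.25 to 0.35), and both values were positive in every setting tried. Neither is past 1.5-fold. At least as far from 0 as Kpna4 lay 27.8% of all genes tested in KD-1, with 57.0% in KD-2, and among genes whose mean reached 1000 reads these shares were 12.1% and 48.6%.

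The share that each gene took of the importin α reads does not depend on how libraries are scaled. Kpna2 held 58.6% of them in the control library (interval 58.2 to 58.9), 54.6% for KD-1 (interval 54.3 to 54.9) and 50.8% for KD-2 (interval 50.4 to 51.2). Kpna4 held 6.27% in the control library, 7.93% for KD-1 and 10.1% for KD-2, and Kpna1 held 11.2%, 12.9% and 13.6%. Kpna6 held 6.14% in the control library, 6.94% for KD-1 and 7.86% for KD-2, while Kpna3 stayed between 17.6% and 17.9%. There were 9.35 reads of Kpna2 for each read of Kpna4 in the control library (interval 9.09 to 9.61), 6.88 for KD-1 (interval 6.73 to 7.05) and 5.05 for KD-2 (interval 4.92 to 5.18). For Kpna2 and Kpna4 the shares of the 3 libraries differ by more than the counting of reads, while the intervals of Kpna3 overlap in all 3, and no spread between replicates can be set beside the differences. The shares count reads, which longer transcripts collect more of, and for Kpna2 62.6% of the distinct 50-base windows of its transcripts also occur in other annotated genes, so that reads there cannot be placed at Kpna2. Per exon length, Kpna2 held 74.2% of the importin α level in the control library, 71.6% for KD-1 and 68.8% for KD-2, and Kpna4 held 2.55%, 3.34% and 4.38%. Kpna1 held 4.79% per exon length in the control library, 5.75% for KD-1 and 6.24% for KD-2. For these genes the direction was the same on either scale, while Kpna3, with 15.1% per exon length in control and 15.4% in KD-1, lay above control in both knockdown libraries on this scale and below it in share of reads. Shares show unequal change only, and not which of the genes changed.

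Among the receptors of the importin β family, Kpnb1 and Tnpo1 had like values and Ipo5 lay lower in KD-2. Kpnb1 (chr11:97159714-97187881, minus strand) was at 639.6 RPM in the control library, 727.0 for KD-1 and 524.2 for KD-2. On the log2 scale the fold change was 0.18 for KD-1 (interval 0.17 to 0.20) and -0.29 for KD-2 (interval -0.31 to -0.27). Tnpo1 (chr13:98839019-98926384, minus strand), which encodes transportin-1, the importer of proteins such as hnRNP A1, was at 536.4 RPM in the control library, 593.2 for KD-1 and 436.6 for KD-2. For Tnpo1 the log2 fold change was 0.15 for KD-1 and -0.30 for KD-2. For both genes KD-1 was the highest library and KD-2 the lowest. Ipo5 (chr14:120911224-120947999, plus strand) had 67302 reads in the control library, 74803 for KD-1 and 44351 for KD-2. The log2 fold change of Ipo5 was -0.06 for KD-1 (interval -0.08 to -0.05) and -0.65 for KD-2 (interval -0.66 to -0.63), a 1.57-fold lower level. In KD-2, 5.57% of all genes tested had a lower value than Ipo5. At least as far from 0 lay 22.7% of all genes tested and 11.6% of those whose mean reached 1000 reads. Reads of Ipo5 per read of Tnpo1 numbered 1.76 in the control library (interval 1.74 to 1.79), 1.53 for KD-1 (interval 1.51 to 1.54) and 1.38 for KD-2 (interval 1.36 to 1.40).

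Xpo1 (chr11:23256041-23298249, plus strand), whose product exports proteins with a leucine-rich export signal, had 46678 reads in the control library, 50023 for KD-1 and 30172 for KD-2. Scaled, these are 656.3 RPM in the control library, 606.0 for KD-1 and 411.2 for KD-2. KD-2 was the low library and KD-1 was slightly below control. The log2 fold change of Xpo1 was -0.11 for KD-1 (interval -0.13 to -0.10) and -0.67 for KD-2 (interval -0.70 to -0.65), a 1.596-fold lower level and the value farthest from 0 among the 10 genes. Over the settings tried the value in KD-2 lay between -0.71 and -0.58. In KD-2, 5.00% of all genes tested had a lower value than Xpo1, and among the 7881 genes whose mean reached 1000 reads, 10.2% lay at least as far from 0. In those 7881 genes, 15.6% were called in KD-2 in either direction and 5.65% were called lower.

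Reads of Xpo1 per read of Kpnb1, the main importin β, numbered 1.03 in the control library (interval 1.01 to 1.04), 0.834 for KD-1 (interval 0.824 to 0.844) and 0.784 for KD-2 (interval 0.773 to 0.796). The ratio was thus highest in control, by more than the counting error. Among the genes whose mean reached 1000 reads, those whose pair of log2 fold changes in KD-1 and KD-2 lay nearest to the pair of Xpo1, by Euclidean distance over these 2 comparisons, were Ccne2, Rps15a-ps6 and Rad54l. Ccne2, which encodes cyclin E2, was at -0.12 for KD-1 and -0.68 for KD-2, and Rad54l, a gene of homologous recombination, was at -0.12 and -0.66. Rps15a-ps6 was at -0.10 for KD-1 and -0.68 for KD-2. Both comparisons share the control library.

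Ran (chr5:129020069-129024323, plus strand) encodes the GTPase itself and had the most reads of the 10 genes in each library. It had 96206 reads in the control library, 111946 for KD-1 and 86385 for KD-2, or 1353 RPM in the control library, 1356 for KD-1 and 1177 for KD-2. For Ran the log2 fold change was 0.00 for KD-1 (interval -0.01 to 0.02) and -0.20 for KD-2 (interval -0.21 to -0.19). The value in KD-1 changed sign with the scaling, between -0.07 and 0.01. Rasl2-9, a near copy of Ran, had 10 reads in the control library, 11 for KD-1 and 10 for KD-2.

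Per exon length, the order of the genes in control was Ran at 511.2 RPKM, Kpna2 at 250.2, Ipo5 at 157.7, Kpnb1 at 97.05, Xpo1 at 91.4, Kpna3 at 51.0, Tnpo1 at 47.8, Kpna1 at 16.2, Kpna6 at 11.2 and Kpna4 at 8.60. With 1 control library there is no spread to say which neighbors differ, and the control value of Xpo1 lies within the range of Kpnb1 over the 3 libraries, as that of Tnpo1 does within the range of Kpna3. These ranges span 3 different conditions and are not a spread between replicates. Tnpo1 was at 52.9 RPKM and Kpna3 at 51.2 in KD-1, and at 38.9 and 38.7 in KD-2, the reverse of their order in control. Levels of Kpna2 and Ran are limited by copies of these genes. Of the distinct 50-base windows in Kpna2 transcripts, 62.6% also occur in transcripts of other annotated genes such as Gm10184 and Gm10259, against 14.1% for Ran, 10.7% for Tnpo1 and 0% for Xpo1, Kpna1, Kpna3 and Kpna6. Reads in such windows cannot be placed at 1 gene, and the authors kept reads with a high mapping quality only. When reads of Kpna2 were divided by the length of the windows that it does not share, its control level on the RPKM scale was 648.7, against 605.0 for Ran. The same calculation gave 616.3 for Kpna2 and 606.5 for Ran in KD-1, so that the order of these genes in control and KD-1 depends on the length used. In KD-2 it gave 431.6 for Kpna2 and 526.5 for Ran, and Ran was higher with either length. The order of Tnpo1 and Kpna3 in control also depends on the length, with 53.4 for Tnpo1 and 51.0 for Kpna3 by the windows that each does not share.

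Compared directly, all 10 genes were higher in KD-1 than in KD-2, against 55.6% of all genes tested and 62.1% of those whose mean reached 1000 reads, with log2 differences from 0.07 for Kpna4 to 0.58 for Ipo5. Kpna4 changed sign with the scaling, down to -0.05 with library totals. None of the 10 was called, against 29.2% of all genes tested and 18.6% of those whose mean reached 1000 reads, although Ipo5 lay 1.499-fold apart and Xpo1 1.474-fold, just inside the threshold. Counted by sign, 9 of 10 genes were lower than control in KD-2, against 47.2% of all genes tested, and 3 of 10 were lower in KD-1, against 44.8%. Each of the 10 genes has a mean above 1000 reads, and among genes of that depth 58.8% were lower in KD-2 and 51.6% in KD-1. The median log2 fold change of the 10 genes was -0.29 in KD-2, where that of all genes tested was 0.04 and that of genes of this depth was -0.10. In KD-1 it was 0.07, where that of all genes was 0.03 and that of genes of this depth was -0.01. The control library enters both comparisons, and a deviation of this library would move both.

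When KD-1 and KD-2 were joined and set against control, the quasi-likelihood test of edgeR had 1 residual degree of freedom, which rests on the difference between KD-1 and KD-2. It called 0 of the 10 genes, against 0.024% of all genes tested (4 of 16670), and 0 of the 10 had an unadjusted p-value under 0.05, as 246 of all genes tested did. The Wald test of DESeq2 also called 0 of the 10, with 0 at an unadjusted p-value under 0.05. The log2 fold change of Xpo1 in this test was -0.37 (SE 0.48, adjusted p = 1.00, lower in 2 of 2 libraries), and that of Kpna4 was 0.33 (SE 0.40, adjusted p = 1.00, higher in 2 of 2 libraries). For both genes the SE, which draws on the dispersion fitted across genes, is larger than the difference.

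The other genes of the pathway were taken as a list of 23 by role, each with a mean of 10 reads or more. KD-2 gave 3 calls among them (1 above and 2 below control), and KD-1 gave 1, above control. The called shares are 26.9% of all genes tested in KD-2, with 7.53% called lower, and 14.4% in KD-1. Among genes whose mean reached 1000 reads, 15.6% were called in KD-2. The median of the 23 genes was -0.27 in KD-2 and 0.03 in KD-1. Of the other exportins, 7 of 7 were lower in KD-2, against 47.2% of all genes tested and 58.8% of those whose mean reached 1000 reads, at log2 fold changes from -0.67 to -0.23 and a median of -0.50. In KD-1, 4 of them were lower and 3 were higher, from -0.07 to 0.25. Xpo7 had 11234 reads in the control library, 12741 for KD-1 and 7284 for KD-2, and its log2 fold change in KD-2 was -0.67. Xpo4, which exports proteins such as eIF5A, was called at -0.65 in KD-2. Cse1l, whose product carries importin α back to the cytoplasm, was at 388.8 RPM in the control library, 384.6 for KD-1 and 268.5 for KD-2, a log2 fold change of -0.53 that was not called. Reads of Kpna2 per read of Cse1l numbered 1.85 in the control library (interval 1.82 to 1.88), 1.78 for KD-1 (interval 1.75 to 1.80) and 1.78 for KD-2 (interval 1.75 to 1.81), so that the knockdown libraries agree within counting error and lie slightly below control. Ranbp17, an exportin related to Xpo7, was called higher in KD-1 than in KD-2, at a log2 difference of 0.71, as was Xpo7 at 0.64, in a comparison where 29.2% of all genes tested were called. With DESeq2 scaling or library totals the call of Xpo7 was lost, at 0.52 in its lowest setting.

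Of the 8 other importin β family genes, 5 lay below control and 3 above it in KD-2, from -0.41 to 0.27, and 0 were called. Of the 6 other genes of the Ran cycle, 3 were lower and 3 higher in KD-2, with 0 called. Among all genes tested, 47.2% were lower in KD-2 and 26.9% were called. Rcc1, the nuclear exchange factor that loads Ran with GTP, was at 208.2 RPM in the control library, 223.6 for KD-1 and 173.0 for KD-2. Rangap1, which activates the GTPase of Ran in the cytoplasm, was at 316.8, 335.5 and 351.0 RPM in the same order. Nutf2, which brings Ran back into the nucleus, was at 6.95 RPM in the control library, 7.75 for KD-1 and 7.09 for KD-2. Exons of Rcc1, Rangap1 and Xpo7 share a short stretch with a counted neighbor, namely Snhg3, Zc3h7b and Npm2. Rangrf, one of the 3 lower Ran cycle genes at -0.57 in KD-2, shares most of its exon bases with Slc25a35, and Tnpo2 and Tnpo3 of the importin β family share longer stretches with A230103J11Rik and Irf5. Kpna7, an importin α of oocytes and early embryos, was called higher in each knockdown library. In either direction, 14.4% of all genes tested were called in KD-1 and 26.9% in KD-2. Both Kpna7 calls rest on the same control value, and the share of all genes called in both libraries is not given here. Kpna7 had 23 reads in the control library, 102 for KD-1 and 64 for KD-2, with log2 fold changes of 1.91 for KD-1 (interval 1.27 to 2.65) and 1.41 for KD-2 (interval 0.72 to 2.19). Its level is low, at 0.103 RPKM in control, and its exons share a short stretch with Arpc1a on the opposite strand.

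Marker genes of the cells in the culture differed between the same libraries. The marker lists were chosen with earlier results of these data known, so that their counts describe the libraries and are not a test. Of the 10 feeder fibroblast markers, 10 were higher than control in KD-2, with 9 called, against 19.4% of all genes tested that were called higher there. In KD-1 10 of them were lower, with 6 called, against 5.39% of all genes that were called lower. Their summed level was 2342 RPM in the control library, 1617 for KD-1 and 4079 for KD-2. The 10 pluripotency markers summed to 4784 in the control library, 5271 for KD-1 and 3662 for KD-2, which is 0.765 of control in KD-2. Of these 10 markers, 7 were lower in KD-2, from -0.63 for Zfp42 to -0.15 for Pou5f1 on the log2 scale, and 3 were higher, namely Klf4 at 0.21, Esrrb at 0.28 and Utf1 at 1.23. Among all genes tested, 47.2% were lower in KD-2, as were 58.8% of those whose mean reached 1000 reads. The 10 transport genes summed to 5359 RPM in the control library, 5439 for KD-1 and 4095 for KD-2, which is 0.764 of control in KD-2. The 6 proliferation markers, such as Ccnb1, were all lower in KD-2 (median -0.53 on the log2 scale), beside the same shares of 47.2% and 58.8%. Of the 6, 2 were called lower, against 7.53% of all genes tested. The 6 markers summed to 2939 in the control library, 2805 for KD-1 and 1949 for KD-2. Reads of Xpo1 per read of Ccnb1 numbered 0.786 in the control library (interval 0.777 to 0.796), 0.710 for KD-1 (interval 0.702 to 0.718) and 0.725 for KD-2 (interval 0.715 to 0.736). Of 6 endoderm markers, 3 had a mean under 10 reads, and the list summed to between 1.36 and 2.18 RPM. No marker of these lists was at 0 in any library. The part of the proliferation and pluripotency markers in the values of the transport genes was not tested either.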

How the data were processed

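The authors trimmed 50 bp single-end reads with Trim Galore 0.4.1, mapped them with TopHat 2.1.1 to mm10 (GRCm38), kept reads with a high mapping quality, and deposited raw read counts per gene for 1 library per condition, without normalization. The methods name featureCounts and the submitters' processing notes name HTSeq as the counter, and the strand setting is not given in the sources used here. Lines that name no gene were left out (21.5% to 24.1% of reads outside genes and 1.45% to 1.65% ambiguous). Depth per library was 69839336 to 85258834 reads on genes.

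Counts were scaled with edgeR 4.0.16 in R 4.3.3 by upper-quartile factors. Each knockdown library was compared with the control and with the other as fold changes without a test, and the joined knockdown libraries were tested against control with the quasi-likelihood test of edgeR (Benjamini-Hochberg over 16670 genes), with DESeq2 1.42.0 as an alternative. The study took its dispersion from spike-ins, which were not used here. Other alternatives were the scaling, the pseudocount, the filter, the fold threshold and assumed dispersions of 0.01 and 0.04. The scripts were tested on simulated data. Exon lengths, coordinates and transcripts came from GENCODE M21, and promoters from RefSeq. Python 3.11.15, scipy 1.17.1 and pandas 2.3.3 were used.

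The genes and lists were chosen with earlier results of these data known. Genes named were the 10 transport genes, Nup153, Rasl2-9, and of the 23 other transport genes those called in any comparison and Kpna7, Cse1l, Rcc1, Rangap1 and Nutf2. The 3 genes nearest to the transport gene with the largest change were also named. Marker genes and the genes with shared windows or exons were named after their values were seen.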

Additional observations from a re-analysis of the deposited data

How the results depend on the processing

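The 1.5-fold threshold decides most counts. Of the 10 transport genes, 3 were called in KD-2 with upper-quartile, TMM and DESeq2 scaling, 2 with a minimum mean of 100 reads (Kpna2 was no longer called), 1 with a minimum mean of 1000 reads, chosen after seeing the data (Xpo1), and 0 with library totals, a fold above 2 or a likelihood ratio test at a dispersion of 0.04. With a lower threshold (0.32 on the log2 scale), 1 was called in KD-1, 4 in KD-2 and 7 between the knockdown libraries, against 32.2%, 54.4% and 56.2% of all genes tested. With a minimum mean of 1 read, 2 were called between these libraries. Shares of all genes under the alternative settings are given for the lower threshold only. Of the 23 other transport genes, 0 were called in KD-1 with a minimum mean of 100 reads, which leaves Kpna7 out, and 3 with the lower threshold. In KD-2 there were 11 with the lower threshold, 1 with library totals or a fold above 2, and 0 at a dispersion of 0.04. Between KD-1 and KD-2 there were 1 with DESeq2 scaling or library totals, 11 with the lower threshold, and 0 with a fold above 2 or at a dispersion of 0.04. The median of the 10 genes in KD-1 was 0.00 with DESeq2 scaling, 0.046 with TMM and 0.053 with library totals. In KD-2 it was -0.20 with library totals, -0.33 with a minimum mean of 1 read and -0.26 with one of 100 reads. Library totals moved the median of all genes by -0.12 in KD-1 against KD-2. A higher minimum leaves fewer low genes to set the upper quartile. For the other shifts the cause was not tested. Signs changed for 2 of 10 genes in KD-1, 1 in KD-2 and 1 between them. In the test of both knockdown libraries 0 of 10 genes were called in every setting run. Leaving out a knockdown library leaves no residual degree of freedom, so that the values are those of KD-1 or KD-2 alone: for Xpo1 -0.67 without KD-1 and -0.11 without KD-2. No paired analysis was possible because each condition has 1 library. Each of the 10 genes had 5360 or more reads in every library, so that counting error is small.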
